A study of Mus musculus with 4 samples.

Results

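The regions described here are stretches of the mouse genome where TFE3 was called on chromatin of unstressed fibroblasts and in neither of 2 stress conditions. Peaks of the control, starvation and tunicamycin lists were pooled, and peaks that overlapped by at least 1 bp were merged into 3415 regions. Of these, 220 held a control peak and no starvation or tunicamycin peak (6.44% of all regions), and each of the 220 held 1 control peak. The regions were thus chosen by the authors' peak calls in all 3 lists, and their scores, folds and tag numbers are a description that is not tested. The remaining 201 control regions, with 202 control peaks, were also called under a stress and are used for comparison.

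TFE3 belongs to the MITF/TFE transcription factors, which bind E-box motifs as dimers through a basic helix-loop-helix domain, and it is known for switching on genes of lysosomes and autophagy. In fed cells it is phosphorylated and held largely in the cytoplasm, and it moves to the nucleus when nutrients run short or when the endoplasmic reticulum is stressed. The series concerns the part of this family in the integrated stress response, and the control-only regions are the sites called in fed cells that have no call in the stressed ones.

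All 4 chromatin immunoprecipitation sequencing (ChIP-seq) libraries came from mouse embryonic fibroblasts (MEF) labelled as strain CRL-2977, grown in DMEM with 10% serum and fixed in 1% formaldehyde, with 1 library per group. The control cells ("Full") were left in that medium, the starved cells spent 2 hours in Earle's balanced salt solution, and the tunicamycin cells received 0.1 µg/ml of the drug for 16 hours. Tunicamycin is an inhibitor of N-linked glycosylation, so that unfolded proteins build up in the endoplasmic reticulum. These 3 libraries were made with an antibody against TFE3, and the remaining library, made with rabbit IgG, served as the shared background. The stress durations differ, no vehicle control is labelled, and the treatment of the IgG cells is labelled as background control alone. With no replicate of any condition, every difference below is between libraries and carries no test.

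The number of TFE3 tags (sequenced fragments) over a summit was recovered from the authors' fold enrichment and p-value. Depths were 1.54 (control), 1.62 (starvation) and 2.14 (tunicamycin) times that of the IgG library. The starvation library was thus 1.05 times and the tunicamycin library 1.39 times as deep as the control library, so neither stress library was the shallower one. No mm9 sequence or gene annotation was used here, so the regions are given by mm9 position (1-based), without genes, motifs or letters of sequence.

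The control-only regions were mostly weak calls with a few strong ones among them. Their median score, which is 10 times the −log10 of the q-value, was 55.5 (interquartile range 37.75 to 80.25, range 15 to 313), against 93 (53.5 to 143) for the other control peaks. The authors' median fold enrichment over local background was 5.88 (range 3.13 to 13.6), against 6.86 (3.45 to 15.3). A summit rested on a median of 28 tags (range 20 to 72), against 34.5 (19 to 118). The lower ends of the 2 sets were alike, and the other control peaks reached higher in score, fold and tags. Starvation-only regions had a median score of 60 and a median fold of 5.32, and tunicamycin-only regions 78 and 5.66. A low median fold was thus not particular to the control-only regions. In the highest 25% of the control list by score, 25 of 106 peaks were control-only (23.6%, 95% exact interval 15.9 to 32.8), and in the lowest 25%, 77 of 106 were (72.6%, 63.1 to 80.9). Over the whole list 52.1% of control peaks had no starvation peak and 59.7% had no tunicamycin peak. Intervals here and below cover counting error over peaks alone.

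**Figure D1:**
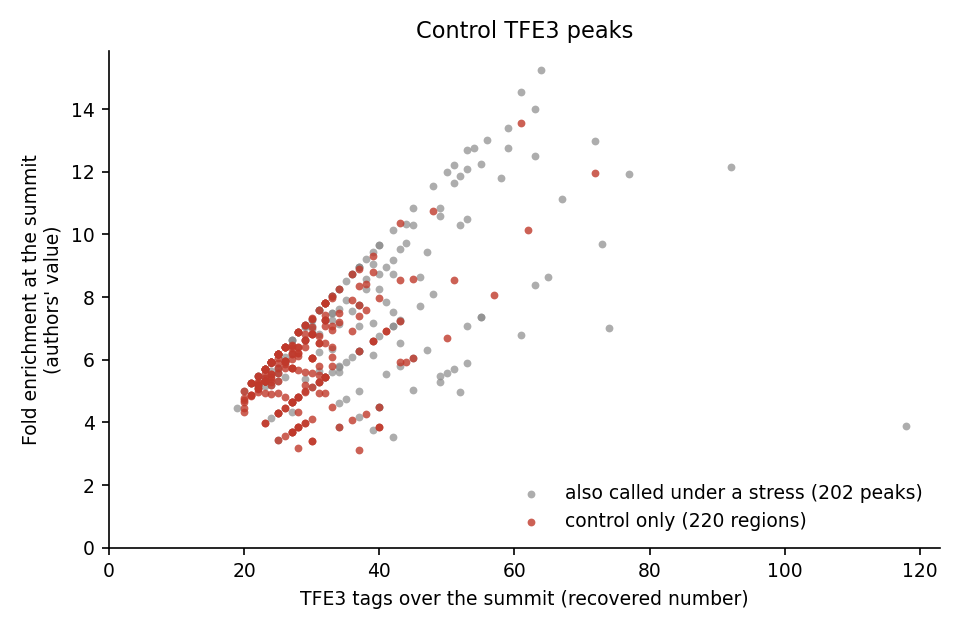
Each point is a control peak, with the recovered number of TFE3 tags over its summit on the x axis and the authors' fold enrichment on the y axis, for the 220 control-only regions and the 202 other control peaks. The control-only regions lie between 20 and 72 tags, within the span of the others (19 to 118).

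The strongest of them was on chromosome 7 at 91477693 to 91478319, ranked 6 among all control peaks by score, with 72 tags at the summit (95% exact Poisson interval 56.3 to 90.7) and a fold of 12.0. The nearest tunicamycin peak lay 89.3 kb away and the nearest starvation peak 656.9 kb away. Chromosome 13 at 25716529 to 25717134 had the highest fold of the set, 13.6, on 61 tags (46.7 to 78.4). Both intervals lie wholly above the set's median of 28 tags, which largely follows from picking the highest score and the highest fold. The third and the fifth by score were neighbours on chromosome 15, at 11758741 to 11759226 (62 tags, fold 10.2) and 11760448 to 11760887 (57 tags, fold 8.06), separated by 1221 bp. Chromosome 18 at 69864245 to 69864742 came between them, with 48 tags and a fold of 10.7.

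The next 5 by score had folds between 8.54 and 10.4 and lay on 5 chromosomes. These were chromosome 15 at 43456600 to 43456951 (51 tags), chromosome 10 at 4378616 to 4378942 (43 tags) and chromosome 3 at 108562592 to 108562967 (45 tags). Chromosome 14 at 121638651 to 121638891 followed with 39 tags and chromosome 6 at 17616284 to 17616616 with 43 tags. Among these 10 strongest regions, the one on chromosome 3 had a tunicamycin peak 8.38 kb away, and for the others the nearest stress peak was at least 89.3 kb off.

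At the weak end the calls were close to the limit of the list. The lowest score, 15, belonged to chromosome 6 at 34583817 to 34583965, with 28 tags (18.6 to 40.5) over a local background of 5 IgG tags and a fold of 3.20. Chromosome 12 at 96838971 to 96839119 and chromosome 3 at 103397630 to 103397778 followed, both with a score of 16, on 25 and 26 tags. These 3 were 149 bp wide, the shortest width in the control list, and 15 of the 220 regions had that width.

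The control-only regions had a median width close to that of the other control peaks, at a lower median score. Their median width was 215 bp (interquartile range 175.75 to 279.75), against 219.5 bp (176.25 to 293.5). Within 4 bands of score, bounded by the quartiles of the control list, the control-only regions had the higher median width in all 4. Between scores of 68 and 108 it was 257 bp for 54 control-only regions and 200 bp for 53 others, and at 108 or more it was 346 bp for 26 and 285 bp for 84. The median fold at the summit in these bands was 6.84 against 6.64 and 8.38 against 8.97, and the signal along the peaks was not examined. The widest region was on chromosome 13 at 32359077 to 32359774 (698 bp, 39 tags), followed by chromosome 8 at 40867074 to 40867718 (645 bp, 28 tags) and the strongest region on chromosome 7 (627 bp). Both score and width come from the calls that chose the regions.

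Most control-only regions were called against an IgG background above the genome-wide value, as were most of the other control peaks. The genome-wide value is the lowest that the recovered background takes, so no region could lie below it. The share above it at other positions of the genome was not measured. The fragment length was taken as the shortest peak width of the list, 149 bp. The genome-wide background was 1.79 IgG tags per fragment length, and 174 of 220 regions had been called against more than that (79.1%, 73.1 to 84.3). Among the other control peaks 146 of 202 had (72.3%, 65.6 to 78.3), and these intervals overlap. At 84 control-only regions the background was a whole number of IgG tags, as given by a window of 1 fragment length. That number was 2 at 31 regions, 3 at 28, 4 at 15, 5 at 7, 6 at 2 and 7 at 1. At 45 regions it matched a value of a 1 kb window, at another 45 a value of a 10 kb window alone, and at 46 the genome-wide value. Every value of a 1 kb window can also come from a 10 kb window, so these 2 are told apart by value only. A value of a 10 kb window alone was matched at 28 of the 202 other control peaks (13.9%, 9.41 to 19.4), against 20.5% (15.3 to 26.4) of the control-only regions. The median background was 2.09 IgG tags for control-only regions and 2.03 for the others, a difference of less than 1 tag.

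An unchanged level was compared with the limits of the stress lists. For each region the tags per depth of the control library were carried over to the stress library, and the background was rescaled by the ratio of the 2 genome-wide values. That ratio follows the longer fragments of the stress lists (193 and 212 bp against 149 bp), while the carried-over tags were not rescaled for them. The counts below hold for this calculation alone, and scaling the tags for fragment length was not tested. At this carried-over level, 209 of the 220 regions (95%, 91.2 to 97.5) would have reached 5.27, the lowest −log10 p of the starvation list, and 209 would have reached 4.70, that of the tunicamycin list. For all 422 control peaks the share was 96.9% for starvation and 96.9% for tunicamycin. This count was nearly fixed beforehand, since the lowest −log10 p of the control list was 5.85, and it says nothing particular to the control-only regions. Counted in whole tags of the stress library, 204 regions would have reached the starvation value and 208 the tunicamycin value. The lowest −log10 p is a lenient limit, because a peak must also hold up over a minimum length. At the 25th percentile of each list's −log10 p (10.2 and 10.8), 71 regions would have reached the starvation list (32.3%, background 47.9%) and 52 the tunicamycin list (23.6%, background 38.2%). Which of the weaker regions fell below a call through a lower level and which through the limit of the call thus cannot be told apart.

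The calculation in whole tags gives the level a stress library would have needed to reach its lowest −log10 p. In starvation a median of 22 tags (range 20 to 41) would have been needed, which per depth is 0.761 of the control level at the same site (interquartile range 0.656 to 0.864). In tunicamycin a median of 26 tags (24 to 54) would have been needed, or 0.717 of the control level (0.621 to 0.839). The needed level was under 0.5 of the control level at 11 regions for starvation and at 14 for tunicamycin. For the strongest region, on chromosome 7, 25 starvation tags or 33 tunicamycin tags would have reached the lowest −log10 p, or 0.330 and 0.329 of its control level. For the chromosome 13 region with the highest fold the values were 20 tags (0.312) and 26 tags (0.306), the lowest in the set for starvation and for tunicamycin. Across the 10 strongest regions the needed level ran from 0.312 to 0.488 of control in starvation and from 0.306 to 0.494 in tunicamycin. These regions are the ones with the highest scores in control, and their level in the stress libraries was not measured. All needed levels are per depth alone, with the background but not the control tags rescaled for fragment length.

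Control peaks that were also called under stress mostly had a higher level per depth there, before any correction for fragment length. At the 202 control peaks that were also called in starvation, the measured starvation level was a median of 2.06 times the control level per depth (interquartile range 1.71 to 2.35), and it was below the control level at 19. At the 170 also called in tunicamycin it was 2.71 times (2.33 to 2.99), and it was below at 3. Of those 19 peaks, 18 were among the 32 peaks of regions called in control and starvation without tunicamycin, where the median was 0.933 (0.722 to 1.23). Regions called in all 3 lists had a median starvation level of 2.13 times control (1.90 to 2.44), so the 2 kinds of shared region differed, as described by calls that also chose them. Peaks with a stress level too low for a call are missing from these medians by construction. The ratios and the counts below control also hold the longer fragments of the stress lists (193 and 212 bp against 149 bp). The part of fragment length in them was not separated. The rescaled background was close to the recovered one at these peaks, with a median ratio of 1 (interquartile range 0.942 to 1 for starvation and 0.937 to 1 for tunicamycin). The lists share 1 IgG library, so the ratio is 1 by construction where the genome-wide value set both backgrounds. The median is therefore a weak check of the rescaling.

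**Figure D2:**
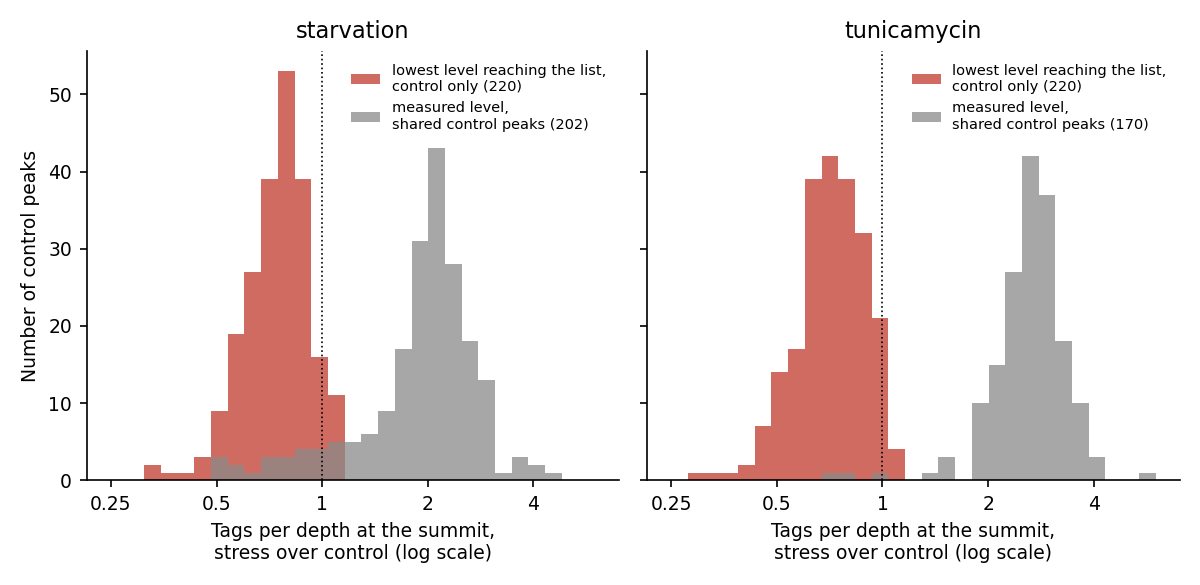
Histograms of stress over control levels, in tags per depth at the summit on a log axis, for starvation (left) and tunicamycin (right). Levels are not corrected for fragment length, which differed between the lists. The 220 control-only regions are shown by the lowest level that would have reached the stress list (medians 0.761 and 0.717), and the control peaks shared with that list by their measured level (medians 2.06 and 2.71).

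Few of the control-only regions had a stress peak close by. The median distance to the nearest starvation or tunicamycin peak was 284.4 kb (interquartile range 113.4 to 621.5), and 10 of 220 regions had one within 10 kb (4.55%, 2.20 to 8.20). Within 1 kb there were 4, and within 100 kb 48 (21.8%, 16.5 to 27.9). By the same measure, 28 of 388 starvation-only regions lay within 10 kb of a peak of the other 2 lists (7.22%, 4.85 to 10.3), with a median distance of 180.0 kb. Of 1484 tunicamycin-only regions 34 did (2.29%, 1.59 to 3.19), with a median of 449.4 kb. The control-only regions stood between these 2 sets, each of which was measured against lists of another length.

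**Figure D3:**
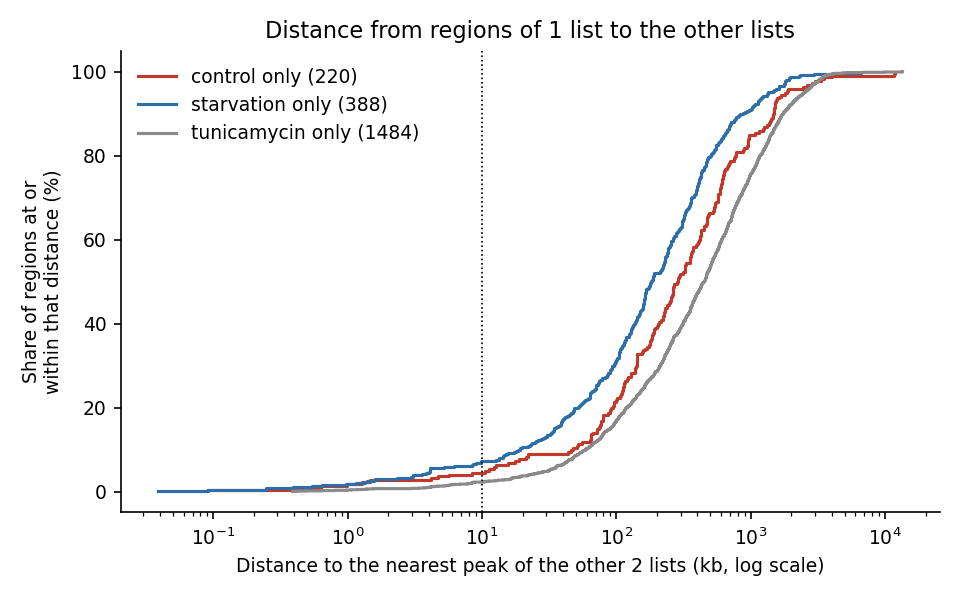
Share of regions (y axis, percent) whose nearest peak of the other 2 lists lies at or within the distance on the x axis (kb, log scale), for control-only, starvation-only and tunicamycin-only regions, with a dotted line at 10 kb. At that line the shares are 4.55%, 7.22% and 2.29%.

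The regions just inside the rule show how near a stress call could come. Chromosome 18 at 78435115 to 78435320 (26 tags, fold 6.41) ended 91 bp before a starvation peak with 26 tags and a fold of 5.14. Chromosome 16 at 26210976 to 26211150 (23 tags) lay 370 bp from a starvation peak with 28 tags. That starvation peak overlapped another control peak, at 26211517 to 26211890, which lay 366 bp from the control-only region. Chromosome 5 at 65269347 to 65269667 (23 tags) lay 635 bp from a starvation peak with 34 tags and 667 bp from a tunicamycin peak with 47. Chromosome 19 followed with 16633181 to 16633358 (25 tags), 980 bp from a tunicamycin peak, and with 57316084 to 57316470 (31 tags), 1286 bp from a tunicamycin and 1387 bp from a starvation peak. None of these 5 was among the 10 strongest. Just outside the rule was chromosome 13 at 60511200 to 60511385 (23 tags), which shared 36 bp with a starvation peak of 44 tags. Chromosome 9 at 87961926 to 87962147 (21 tags) shared 79 bp with a starvation peak of 31 tags. Chromosome 8 at 85394892 to 85395279 (32 tags) shared 112 bp with a tunicamycin peak of 32 tags. Chromosome 6 at 124434938 to 124435113 (24 tags) and chromosome 8 at 38025298 to 38025474 (26 tags) shared 113 and 148 bp with starvation peaks. Such small overlaps were rare, as 2 of 202 shared control peaks overlapped a stress peak by under 100 bp and the median was 212 bp.

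A minority of the control-only regions lay close to each other, while the median distance from one to the nearest other control peak was 946 kb. There were 21 in 10 groups whose neighbours lay within 10 kb (9.55%, 6.01 to 14.2), 9 groups of 2 and 1 group of 3. Among the other control peaks 6 of 202 did (2.97%, 1.10 to 6.35), among starvation-only peaks 8 of 388 (2.06%, 0.894 to 4.02) and among tunicamycin-only peaks 22 of 1484 (1.48%, 0.931 to 2.24). The sets differ in size, and the part of size in these shares was not tested. With neighbours within 50 kb the shares were 14.5% (10.2 to 19.9), 3.96%, 5.93% and 8.42% in the same order, with an interval of 7.06 to 9.95 for the last. Within 100 kb they were 17.3% (12.5 to 22.9), 7.92% (4.60 to 12.5), 10.3% (7.47 to 13.8) and 14.5% (12.7 to 16.4). The interval of the control-only regions overlapped that of every other set, narrowly for the other control peaks. The distance of 10 kb and this comparison were chosen with the positions known, and the difference was not tested.

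The grouped regions were not the weakest calls: their median was 32 tags and a score of 92, and 14 of the 21 scored at or above the median of the control list. The group of 3 lay on chromosome 2, at 117776780 to 117776951 (30 tags), 117777142 to 117777353 (27 tags, 190 bp from the first) and 117785324 to 117785494 (38 tags), over 8715 bp in all and at least 352.4 kb from any stress peak. On chromosome 15 the 2 strong regions noted above, with 62 and 57 tags, spanned 2147 bp. On chromosome 13, the widest region was followed within 1981 bp by 32361756 to 32362143 (39 and 32 tags). The strongest region on chromosome 7 had a neighbour of 26 tags at 91484775 to 91485004. On chromosome 2 a second group held 126128830 to 126129376 (39 tags) and 126135631 to 126136106 (50 tags). Close pairs were also found on chromosome 6 (from 134393997, 27 and 34 tags, 309 bp apart) and chromosome 9 (from 102665213, 32 and 31 tags, 504 bp apart). The remaining groups were on chromosomes 10 (from 16265225, 37 and 25 tags), 19 (from 37336946, 32 and 31 tags) and 3 (from 40325237, 31 and 22 tags). Every grouped region lay between 89.3 and 1477 kb from the nearest stress peak.

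**Figure D4:**
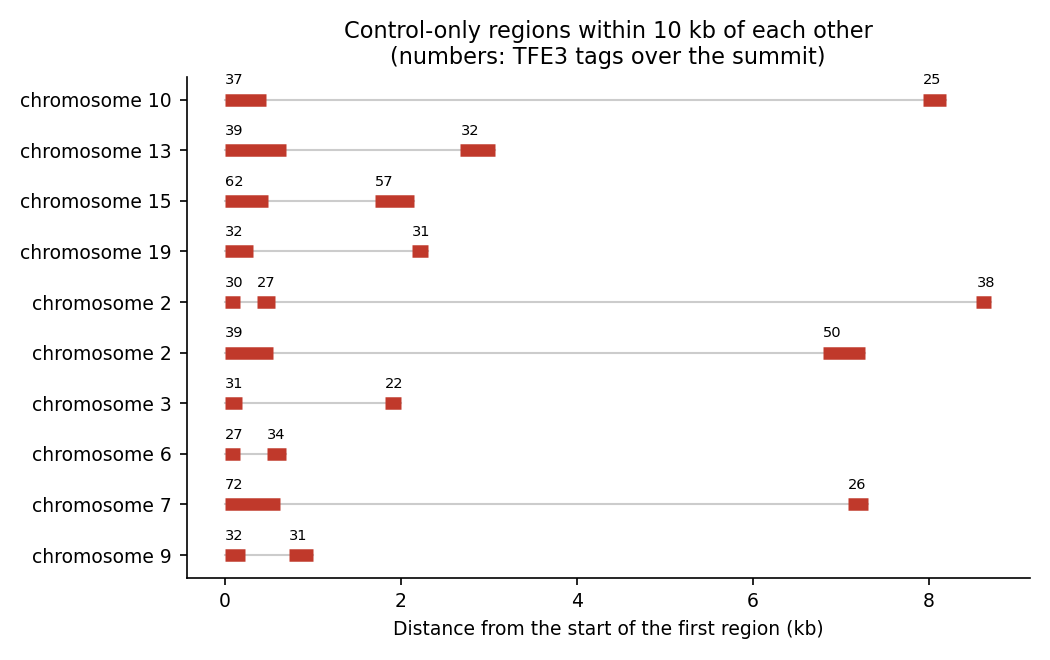
The 10 groups of control-only regions with neighbours within 10 kb, drawn to scale as bars along the distance from the start of the first region (kb, x axis), with the number of TFE3 tags over each summit above its bar. The groups span 700 to 8715 bp.

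By chromosome, the shares of control-only regions and of other control peaks were close on some chromosomes and apart on others, and their spread was not tested. They were close on chromosome 1 (4.09% and 3.96%) and chromosome 2 (8.18% and 7.92%), for example. The control-only regions lay on all 19 autosomes and X. Chromosome 15 held 26 of 220 (11.8%, 7.87 to 16.8), against 14 of 202 other control peaks (6.93%, 3.84 to 11.4), 5.78% of the starvation list and 6.41% of the tunicamycin list. Chromosome 3 held 24 (10.9%, 7.12 to 15.8), against 12 others (5.94%, 3.11 to 10.1), and chromosome 13 held 19 (8.64%, 5.28 to 13.2), against 10 (4.95%, 2.40 to 8.92). Chromosome 11 went the other way, with 3 control-only regions (1.36%, 0.282 to 3.93) against 19 other control peaks (9.41%, 5.76 to 14.3), 7.94% of the starvation list and 6.74% of the tunicamycin list. The 2 intervals for chromosome 11 do not overlap, while those for chromosomes 3, 13 and 15 do. These 4 chromosomes were singled out of 20 after their values were seen. X held 3 control-only regions and 1 other control peak.

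**Figure D5:**
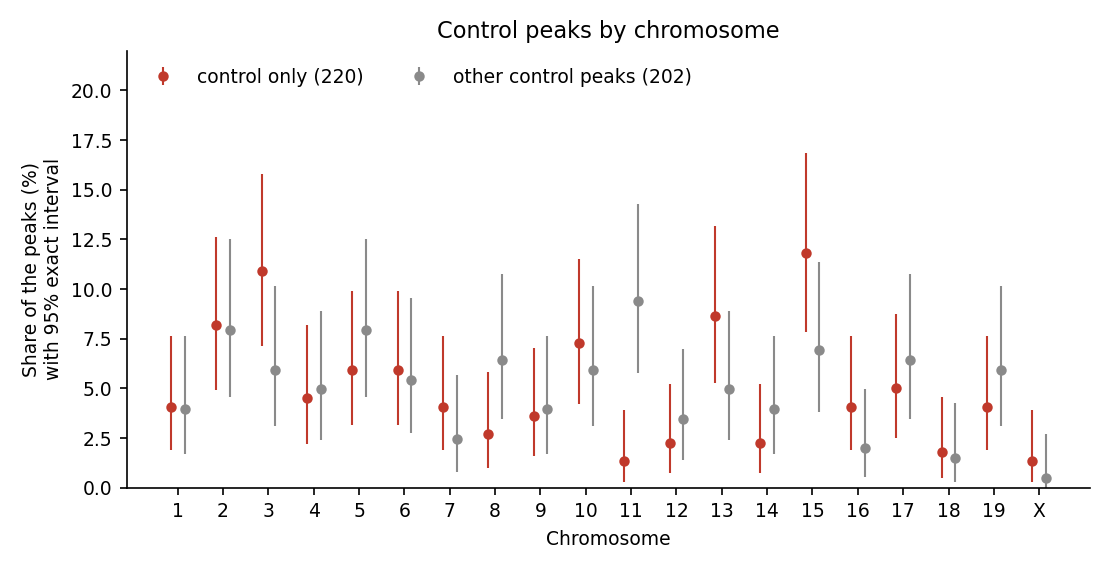
Share of the 220 control-only regions and of the 202 other control peaks on each chromosome (percent, y axis), with 95% exact binomial intervals as bars. Chromosome 15 holds 11.8% and 6.93%, and chromosome 11 holds 1.36% and 9.41%.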

How the data were processed

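Peak lists of 3 TFE3 ChIP-seq libraries were used, 1 per condition. Per the submitters' processing notes, Bowtie and MACS2 were used with mm9 (versions and roles are not given). Peak names pair each TFE3 library with a negative control, so calls were made per library. Values deposited by the authors were a score, a linear fold ratio over local background, and p and q as −log10 values. In 100% of peaks the score was −log10 q times 10, cut to a whole number.

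Tags were recovered by taking the fold as scaled tags plus 1 over background plus 1, and p as a Poisson tail, formulas of MACS2 that the labels do not record. With 1 scale per list (0.650, 0.618 and 0.466 for a tag in control, starvation and tunicamycin), a single whole number met p within 0.004 for 422 of 422, 1702 of 1712 and 2765 of 2776 peaks. The inversion was tested on data simulated with these same formulas, which cannot show whether the formulas hold for the deposited values. A background within 0.003 of the lowest counted as genome-wide. Genome-wide values were 1.79, 2.32 and 2.55 IgG tags per fragment length. Fragment lengths were inferred as the shortest peak width of each list (149, 193 and 212 bp).

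Named regions were the 10 highest and 3 lowest by score, the 3 widest, the 5 nearest to a stress peak, the 5 control peaks of smallest overlap with one, and members within 10 kb of each other. The members and lists were chosen with earlier results of these data known. Planned motif and gene-start shares needed an mm9 sequence and annotation, not used here. Shares carry exact Clopper-Pearson and tags exact Poisson 95% intervals, for counting error alone. Tools were scipy 1.17.1, numpy 2.4.6 and pandas 2.3.3 under Python 3.11.15, with figures by matplotlib 3.10.9.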

Additional observations from a re-analysis of the deposited data

How the results depend on the processing

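The number of control-only regions stayed within 1.5 times of 220 under 7 of 9 alternatives: 276 with a 50% reciprocal overlap, 218 when a stress peak within 500 bp counted as shared, 224 when the control summit had to lie in a stress peak, 224 with 200 bp around each summit, 254 with lists of equal length (which shortens the stress lists alone), and, added after seeing the data, 252 without the starvation list and 220 without the tunicamycin list. At a score of at least 68 in all lists it was 92, and at 108 or more it was 36, fewer peaks being admitted by construction. At 68 or more the median score was 98, the median fold 7.10, the median width 288.5 bp and the share within 10 kb of a stress peak 2.17%. That share was 1.82% at 1 kb and 21.8% at 100 kb. The numbers of regions whose control level would reach a stress list fell from 209 to 71 (starvation) and 52 (tunicamycin) at the 25th percentile of −log10 p, an alternative added after seeing the data. The share in groups was 14.5% with 50 kb in place of 10 kb, also added. The other repeats stayed within their intervals. Motif and gene-start shares were not run. No paired analysis was possible because each condition had 1 library.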
